A study of Mus musculus with 9 samples.

Results

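Pericentral Wnt target genes are the genes that hepatocytes around the central vein switch on in response to Wnt signals, and 10 of them were followed here across livers with and without hepatocyte autophagy. The genes were Glul, Oat, Axin2, Tbx3, Rnf43, Rhbg, Slc1a2, Lhpp, Lgr5 and Nkd1. They were chosen by name, with earlier results of these data known, and each matched a single row of the 24411 genes in the table. RNA-seq of poly(A) RNA was done on 9 livers of 3-month-old C57BL/6 mice, 3 per group. The control group (cont.) was Atg7flox/flox without Cre. The Atg7-KO group was Atg7flox/flox;Alb-Cre, in which the albumin promoter drives Cre in hepatocytes and deletes Atg7, a gene that autophagosome formation requires. The S351A group carried the same floxed alleles and Alb-Cre plus the p62 S351A exchange on both copies, as its titles give it. S351A weakens the binding of p62, a cargo receptor of autophagy, to KEAP1, the inhibitor of the transcription factor NRF2. The genotype entry of replicates 2 and 3 of that group reads S352A and S353A for the second p62 copy, and the titles, which read S351A for both, were followed. All 3 groups share the floxed Atg7 alleles, and livers with p62 S351A but no Cre were not analysed here.

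The libraries differed in depth. Total counts were 1875314 to 15426566 in cont., 1945469 to 3675041 in Atg7-KO and 713835 to 792366 in S351A, so that 3 counts, taken as the lowest level that can be told from 0, corresponded to between 0.269 and 3.73 CPM. Here CPM is a count divided by the TMM-scaled library total and multiplied by 1000000. The floor of 3 counts covers counting error only, and the 95% intervals of fold changes come from the edgeR fit and include the spread between livers. Atg7 itself stood at 45.1, 57.8 and 42.4 CPM in the 3 cont. livers, 30.2, 28 and 28.4 in the Atg7-KO livers and 21.8, 24.8 and 22.2 in the S351A livers, and both deleted groups lay below cont. in every library. By edgeR, its log2 fold change against cont. was -0.74 ± 0.19 (SE, n = 3 per group; adjusted p = 0.00758) in Atg7-KO and -1.07 ± 0.21 (adjusted p = 0.00319) in S351A. Scaling by total counts instead left Atg7-KO at -0.21 (adjusted p = 0.829) and S351A at -0.59 (0.0614), and thinning to the smallest library left Atg7-KO at -0.80 (0.0619). With total counts as the scale, the median over all tested genes shifted by 0.545 log2 units in Atg7-KO and 0.493 in S351A against cont., and the share of calls that were higher from 52.3% to 84.2% and from 54.5% to 87.2%. The gene count covers the whole gene and not only the floxed part. Alb, the main secreted protein of hepatocytes, was at 28419.5, 71346 and 66723 CPM in the 3 cont. livers, 21354, 27303 and 25181 in the Atg7-KO livers and 18820.5, 26281 and 29825 in the S351A livers, so hepatocyte RNA was abundant in all 9 livers. The labels give no sex. By Xist and Y-linked genes, cont. held 2 males (replicates 1 and 3) and 1 female, and Atg7-KO and S351A each held 1 male (replicate 1) and 2 females. Genes were called changed at an adjusted p below 0.05 and a fold above 1.5.

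In the liver lobule, endothelial cells of the central vein release Wnt ligands and R-spondins. In the hepatocytes next to the vein, Wnt binding to Frizzled and LRP co-receptors stops the destruction complex of Axin, APC and GSK3 from degrading β-catenin, which then joins TCF/LEF factors at target genes. The products of these targets capture ammonia as glutamine (Glul), move glutamate and ammonium across membranes (Slc1a2, Rhbg) and turn ornithine into glutamate (Oat), while others (Axin2, Rnf43, Nkd1) feed back on the pathway itself.

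The promoters of 4 genes are shown, because Slc1a2, Oat and Glul carried the largest changes or the highest levels and Axin2 is a classic feedback target of β-catenin. Each sequence is the 250 bases before a RefSeq transcription start on GRCm38.p6, from 5′ to 3′ on the gene's own strand, in lower case. Slc1a2 is chr2:102706188-102706437 (+), Oat chr7:132576399-132576648 (−), Glul chr1:153899679-153899928 (+) and Axin2 chr11:108920099-108920348 (+). Capitals mark a match to a TCF/LEF motif.
Slc1a2: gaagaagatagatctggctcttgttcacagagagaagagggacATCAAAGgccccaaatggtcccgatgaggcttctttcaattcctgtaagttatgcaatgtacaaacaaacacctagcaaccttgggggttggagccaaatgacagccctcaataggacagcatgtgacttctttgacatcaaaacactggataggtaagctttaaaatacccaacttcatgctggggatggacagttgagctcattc
Oat: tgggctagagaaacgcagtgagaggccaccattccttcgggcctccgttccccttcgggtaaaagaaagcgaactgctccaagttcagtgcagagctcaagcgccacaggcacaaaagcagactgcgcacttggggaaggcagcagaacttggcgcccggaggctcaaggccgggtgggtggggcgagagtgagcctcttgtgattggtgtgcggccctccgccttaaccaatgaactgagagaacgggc
Glul: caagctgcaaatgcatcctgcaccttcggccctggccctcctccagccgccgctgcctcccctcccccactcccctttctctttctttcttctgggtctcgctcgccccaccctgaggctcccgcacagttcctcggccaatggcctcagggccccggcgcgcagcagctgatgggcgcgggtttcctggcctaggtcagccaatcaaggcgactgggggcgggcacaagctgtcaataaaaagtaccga
Axin2: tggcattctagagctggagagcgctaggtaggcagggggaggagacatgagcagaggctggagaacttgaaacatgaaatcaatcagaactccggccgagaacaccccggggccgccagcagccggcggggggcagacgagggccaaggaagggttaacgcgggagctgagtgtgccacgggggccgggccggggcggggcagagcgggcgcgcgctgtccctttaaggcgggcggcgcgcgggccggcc
The motif search used the letters AACAAAG, the letters ATCAAAG, the letters TACAAAG and the letters TTCAAAG, on both strands. Among the 6 genes with a RefSeq entry (these 4, Rnf43 with 2 starts, and Nkd1; 7 promoters in all), only Slc1a2 had a match, ATCAAAG on the gene's strand with its first base 207 bases before the start. Any of the 4 motifs occurred in 14.8% of 32851 promoters of the same length, and ATCAAAG in 3.21%. A match is a string of letters and not a measured binding site, and its absence says only that these letters were not in these windows. Tbx3, Rhbg, Lhpp and Lgr5 had no matched entry.

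**Figure D1:**
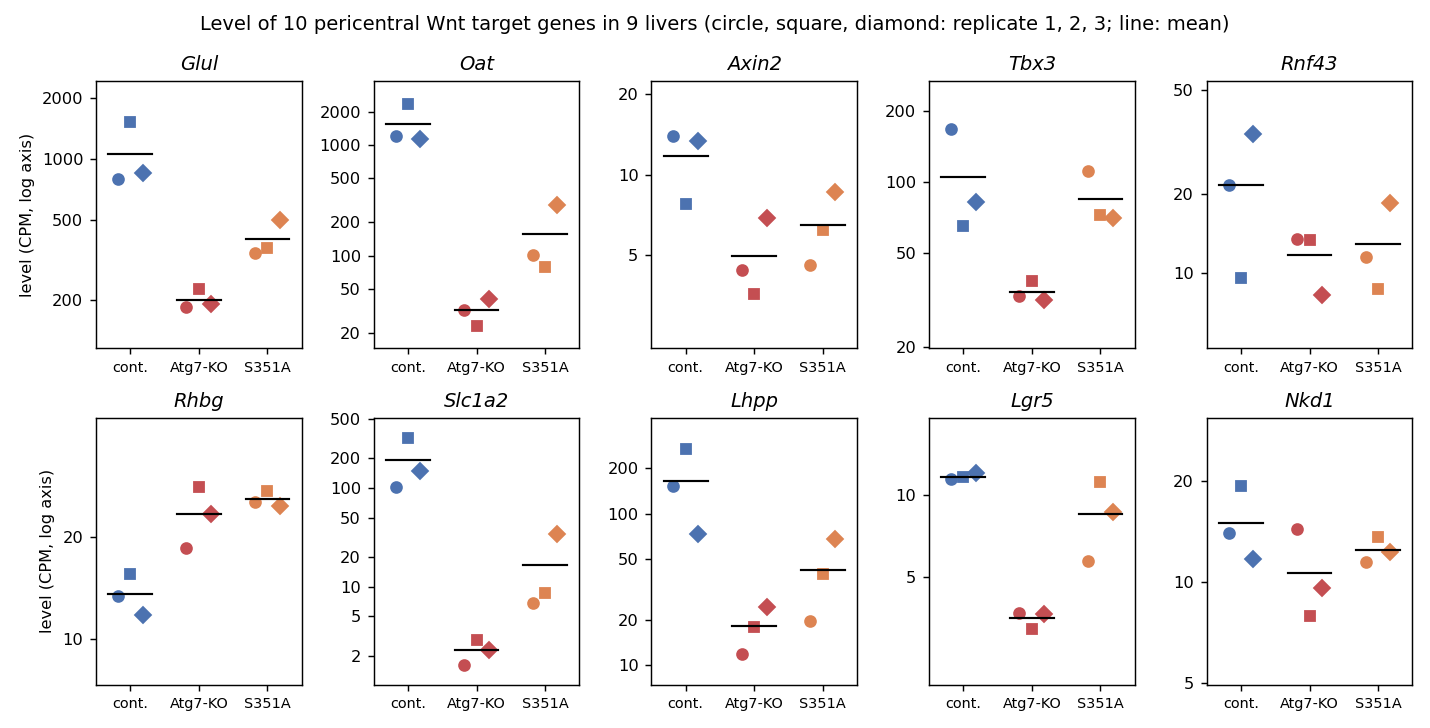
Level of each of the 10 genes in each of the 9 livers, in CPM on log axes that differ between panels. Circles, squares and diamonds are replicates 1, 2 and 3 and horizontal lines are group means. Oat and Slc1a2 show the widest distance between cont. and Atg7-KO, Rhbg is the gene that lies higher in both deleted groups, and Rnf43 and Nkd1 overlap between all groups.

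In Atg7-KO, 7 of the 10 genes were lower than in cont. and 1, Rhbg, was higher. Slc1a2 fell by a factor of 85.8, Oat by 48.8, Lhpp by 9.32, Glul by 5.26, Lgr5 by 3.28, Tbx3 by 3.03 and Axin2 by 2.40. These 8 were also the genes whose Atg7-KO and cont. livers did not overlap, and Rnf43 and Nkd1 did not pass the test. Of all 11199 genes tested, 38% were called in this comparison, 18.1% as lower and 19.9% as higher, while 24.9% had every Atg7-KO library below every cont. library and 26.7% every one above. The median log2 fold change was -1.66 over the 10 genes and -0.03 over all tested genes. All 10 genes passed the filter on low counts, but Slc1a2 and Lgr5 did so through their cont. and S351A libraries, with no Atg7-KO library above its threshold of 5.14 CPM. In bulk RNA, fewer pericentral hepatocytes and less of these transcripts per cell cannot be told apart.

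Oat encodes ornithine aminotransferase (chromosome 7, 132557478 to 132576398 on mm10, minus strand). It was measured at 1197, 2371 and 1125 CPM in the 3 cont. livers, 32.2, 23.3 and 40.7 in the Atg7-KO livers and 101, 78.2 and 290.0 in the S351A livers. The 3 groups did not overlap, and S351A replicate 3 stood well above the other two S351A livers. Against cont. the log2 fold change was -5.61 ± 0.55 (SE; adjusted p = 1.71e-05) in Atg7-KO and -3.32 ± 0.49 (adjusted p = 5.50e-04) in S351A. Without S351A replicate 3, the value in S351A was -4.14 (adjusted p = 1.29e-04).

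Slc1a2 encodes the high-affinity glutamate transporter GLT-1 (chromosome 2, 102658659 to 102790784, plus strand). In cont. it was read at 102, 323 and 148 CPM. In Atg7-KO it fell to 1.62, 2.87 and 2.29 CPM, which rested on 7, 8 and 5 counts. In S351A it was 6.89, 8.69 and 34.6 CPM, from 6, 7 and 28 counts. No library of one group reached into the range of another, and replicate 3 again led the S351A livers. The log2 fold change against cont. was -6.42 ± 0.62 (adjusted p = 1.58e-05) in Atg7-KO and -3.52 ± 0.55 (adjusted p = 7.09e-04) in S351A, the latter -4.63 without replicate 3. The RefSeq start printed above lies inside this gene model, which begins upstream of it.

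Glul encodes glutamine synthetase, which binds ammonia to glutamate in a narrow ring of cells at the central vein (chromosome 1, 153899944 to 153909723, plus strand). It was measured at 802, 1525 and 859 CPM in the 3 cont. livers, 186, 228 and 192 in the Atg7-KO livers and 342, 365 and 499 in the S351A livers. The 3 groups formed 3 separate bands, with cont. highest and Atg7-KO lowest. The mean was 1062 ± 402 CPM (SD, n = 3) over the cont. livers and 202 ± 22.7 over the Atg7-KO livers. The fitted change was -2.39 ± 0.30 (SE; adjusted p = 7.83e-05). In S351A the log2 fold change against cont. was -1.40 ± 0.29 (adjusted p = 0.00369), a 2.64-fold lower level.

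Rhbg, an ammonium transporter of the Rhesus family (chromosome 3, 88242874 to 88254709, minus strand), moved the other way. It was read at 13.3, 15.5 and 11.7 CPM in the 3 cont. livers, 18.6, 28 and 23.3 in the Atg7-KO livers and 25.3, 27.3 and 24.7 in the S351A livers, the last from 22, 22 and 20 counts. Every liver of both deleted groups was above every cont. liver. The protein-coding model Gm38392 overlaps Rhbg on the same strand and has no row of its own in the table, so reads of the 2 models may not be separable. Against cont. it changed by 0.79 ± 0.23 (adjusted p = 0.0149) in Atg7-KO and 0.95 ± 0.25 (adjusted p = 0.0146) in S351A. The Atg7-KO call ended when cont. replicate 3 was left out (adjusted p = 0.0612), when Atg7-KO replicate 2 (0.0885) or replicate 3 (0.0513) was, and after thinning all libraries to the smallest total (0.171). In S351A it was lost without cont. replicate 3 (0.0536) or S351A replicate 2 (0.0603).

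Lhpp encodes a phosphatase that acts on phosphohistidine (chromosome 7, 132610638 to 132706420, plus strand). It lies next to Oat on chromosome 7 and is transcribed away from it, and the long gene model of Fgfr2, a growth factor receptor on the minus strand, spans both. Lhpp was at 153, 271 and 73.6 CPM in the 3 cont. livers, 11.8, 17.9 and 24.3 in the Atg7-KO livers and 19.5, 39.7 and 67.9 in the S351A livers. Both deleted groups stayed below cont., and S351A replicate 1 fell inside the Atg7-KO range. The log2 fold change against cont. was -3.22 ± 0.50 (adjusted p = 3.90e-04) in Atg7-KO and -1.97 ± 0.50 (adjusted p = 0.0110) in S351A. The S351A call was lost without S351A replicate 1 (adjusted p = 0.0518) or replicate 2 (0.0510). Fgfr2 itself ranged from 27.5 to 53.8 CPM over the 9 livers. The strand setting of the counting is not given in the sources used here, so reads of overlapping genes may not be separable. Glul, Axin2, Rnf43, Slc1a2, Lgr5 and Nkd1 also have overlapping gene models.

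Among the genes that act on the Wnt pathway itself, Lgr5 and Axin2 fell in Atg7-KO, while Rnf43 and Nkd1 did not pass the test in either deleted group. Lgr5 is a receptor for R-spondins, which prolong Wnt signalling (chromosome 10, 115450311 to 115587780, minus strand). It was at 11.4, 11.6 and 12 CPM in the 3 cont. livers, 3.71, 3.23 and 3.66 in the Atg7-KO livers and 5.74, 11.2 and 8.64 in the S351A livers, the last from 5, 9 and 7 counts. The cont. livers were nearly equal, Atg7-KO lay lowest and S351A lay between the other two groups without overlap. Its change against cont. was -1.72 ± 0.31 (adjusted p = 9.60e-04) in Atg7-KO. In S351A it was -0.47, with a 95% interval of -1.19 to 0.26 (adjusted p = 0.320), and 0.0249 with scaling by total counts, and it was not called.

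Axin2 is a scaffold of the destruction complex and restrains the signal that induces it (chromosome 11, 108920349 to 108950783, plus strand). It was measured at 14.0, 7.75 and 13.3 CPM in the 3 cont. livers, 4.41, 3.59 and 6.86 in the Atg7-KO livers and 4.6, 6.21 and 8.64 in the S351A livers, where only 4, 5 and 7 counts stood behind it. Atg7-KO was below cont. in every liver, whereas the S351A range overlapped both. In Atg7-KO it changed by -1.27 ± 0.36 (adjusted p = 0.0142). The adjusted p rose to 0.0558 when cont. replicate 3 was left out, to 0.0683 without Atg7-KO replicate 1 and to 0.0697 without Atg7-KO replicate 2, which ended the call. It was also lost when libraries were scaled by their total (log2 fold change -0.71, adjusted p = 0.128) or by their total without the 20 genes with most counts (-0.83, adjusted p = 0.0838). In S351A the log2 fold change was -0.86 (95% interval -1.78 to 0.07, adjusted p = 0.151).

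Rnf43 is a membrane ubiquitin ligase that removes Frizzled receptors (chromosome 11, 87662722 to 87735539, plus strand). It varied widely in cont., at 21.6, 9.51 and 33.8 CPM, against 13.5, 13.3 and 8.24 CPM in Atg7-KO and 11.5, 8.69 and 18.5 CPM in S351A. The single female of cont., replicate 2, was the lowest of that group and lay inside the range of both others. The log2 fold change was -0.92 (95% interval -1.79 to -0.05, adjusted p = 0.0878) in Atg7-KO and -0.80 (adjusted p = 0.226) in S351A. Without cont. replicate 2 both were called, at -1.28 (adjusted p = 0.00604) and -1.17 (adjusted p = 0.0300), and the Atg7-KO value was also called with no filter on low counts (adjusted p = 0.0166). Without cont. replicate 3, the highest cont. liver, the values were -0.32 (adjusted p = 0.551) and -0.21 (adjusted p = 0.775).

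Nkd1 binds Dishevelled and dampens Wnt signalling (chromosome 8, 88521354 to 88594884, plus strand). It was at 14.0, 19.4 and 11.7 CPM in the 3 cont. livers, 14.4, 7.90 and 9.61 in the Atg7-KO livers and 11.5, 13.7 and 12.3 in the S351A livers. The 3 groups overlapped. Its log2 fold change was -0.45 (95% interval -1.09 to 0.19, adjusted p = 0.249) in Atg7-KO, and scaling by total counts turned the sign, to 0.09. In S351A it was -0.25 (-1.00 to 0.50, adjusted p = 0.633).

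Tbx3 is a T-box transcription factor of pericentral hepatocytes (chromosome 5, 119670669 to 119684724, plus strand, with the antisense gene Tbx3os1 across it). It was at 167, 64.8 and 82.4 CPM in the 3 cont. livers, 32.9, 38.0 and 31.6 in the Atg7-KO livers and 111, 72 and 70.3 in the S351A livers. Atg7-KO lay below all other livers, and S351A lay within the cont. range. The change was -1.60 ± 0.33 (adjusted p = 0.00225) in Atg7-KO. In S351A it was -0.29 (95% interval -1.00 to 0.42, adjusted p = 0.544), and without cont. replicate 1, the highest cont. liver, or with scaling by total counts it was 0.17.

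**Figure D2:**
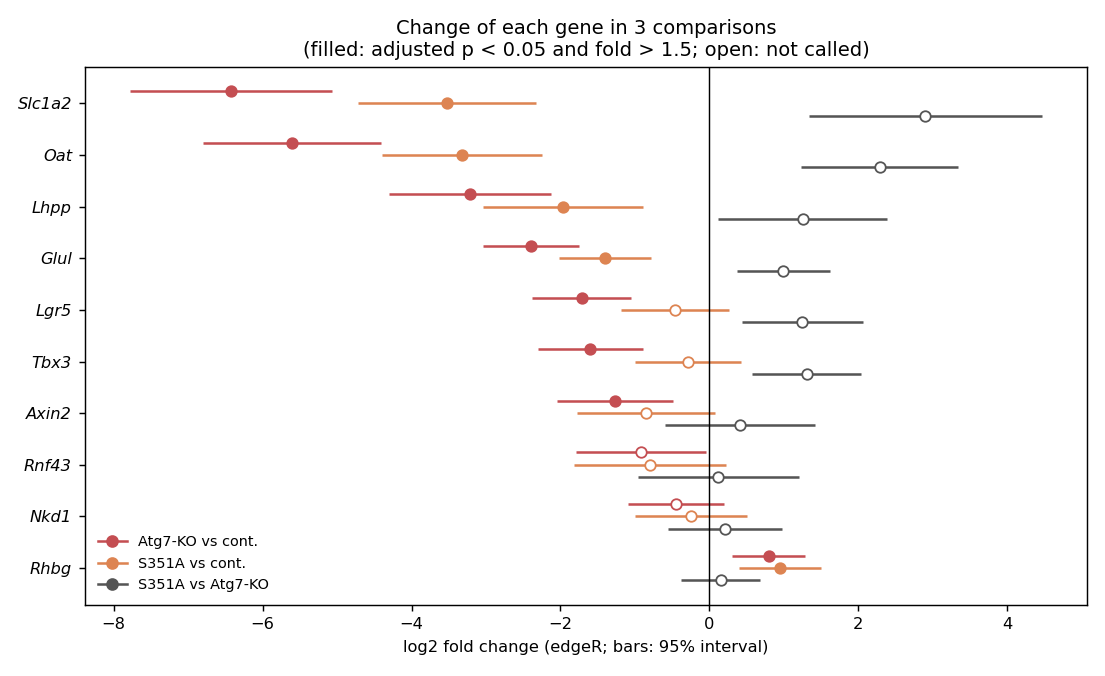
Log2 fold change of each gene in 3 comparisons, with 95% intervals as bars, ordered by the change in Atg7-KO against cont. Filled points passed an adjusted p of 0.05 and a fold of 1.5 and open points did not. All 10 grey points (S351A against Atg7-KO) are open and lie to the right of 0.

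The direct comparison of S351A with Atg7-KO asks whether the p62 exchange changed these genes in livers with hepatocyte deletion of Atg7. None of the 10 genes was called by edgeR after adjustment, in a comparison in which 0.00893% of all tested genes (1 gene, which was lower) were called. All 10 log2 fold changes were above 0, as were 51.2% of those of all tested genes, but Nkd1 turned below 0 after thinning and Rhbg and Rnf43 did when 1 library was left out. Their median was 1.12 against 0.01. At an unadjusted p below 0.05, 6 of the 10 were higher (Glul, Oat, Tbx3, Slc1a2, Lhpp and Lgr5), against 3.38% of all tested genes that were higher at that level. In 5 of them, Glul, Oat, Tbx3, Slc1a2 and Lgr5, every S351A liver was above every Atg7-KO liver, which held for 7.67% of all tested genes. DESeq2 called 2 of the 10, Oat and Slc1a2, limma-voom called 0, and edgeR without a filter on low counts called 3, the same 2 plus Tbx3. Of all genes tested in these settings, DESeq2 called 0.357%, limma-voom 0% and edgeR without the filter 0.514%.

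The largest of these differences was in Slc1a2, at 2.90 (95% interval 1.33 to 4.46, unadjusted p = 0.00161, adjusted p = 0.364). Oat followed at 2.29 (1.23 to 3.34, unadjusted p = 4.73e-04, adjusted p = 0.311). Both values leaned on S351A replicate 3: without it Slc1a2 stood at 1.80 (adjusted p = 0.670) and Oat at 1.48 (adjusted p = 0.550). Tbx3 differed by 1.31 (0.57 to 2.04, adjusted p = 0.382) and was called when only the 6 libraries of the 2 groups were fitted (adjusted p = 0.0456). For Lhpp the difference was 1.25 (0.12 to 2.39, adjusted p = 0.740), and 0.73 without S351A replicate 3. Lgr5 differed by 1.25 (0.43 to 2.06, adjusted p = 0.571) and Glul by 0.99 (0.37 to 1.61, adjusted p = 0.501). For the other genes the intervals held 0, from -0.60 to 1.42 for Axin2, -0.56 to 0.97 for Nkd1 and -0.38 to 0.68 for Rhbg to -0.96 to 1.2 for Rnf43.

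Against cont., 4 genes were lower in S351A (Glul, Oat, Slc1a2 and Lhpp) and Rhbg was higher, while 28.6% of all tested genes were called, 13% as lower and 15.6% as higher. These 5 genes and Lgr5 had no overlap between the S351A and cont. livers, and 18.4% of all tested genes had every S351A library lower and 19.6% every one higher. The median over the 10 genes was -0.83 and over all tested genes -0.03. Without S351A replicate 2 the count of 5 fell to 3, since Rhbg and Lhpp were no longer called, and the share of all tested genes fell to 18.4%. Atg7-KO and S351A were set against the same 3 cont. livers. Side by side, the log2 fold changes in Atg7-KO and S351A were -6.42 and -3.52 for Slc1a2, -5.61 and -3.32 for Oat, -3.22 and -1.97 for Lhpp, and -2.39 and -1.40 for Glul. Lgr5, Tbx3 and Axin2 were called in Atg7-KO and not in S351A, and the direct comparison of the groups did not call the difference. The summed level of the 10 genes was 2370.4 to 4618 CPM over the cont. livers, 319 to 366 over the Atg7-KO livers and 631 to 1034 over the S351A livers, most of it from Oat and Glul.

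**Figure D3:**
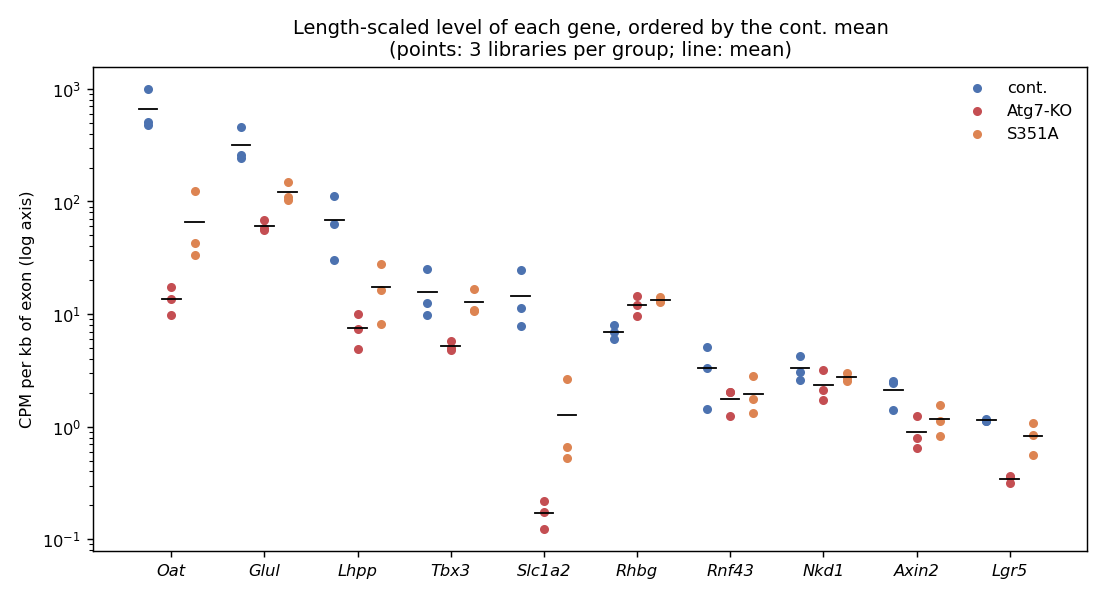
Level of each gene per kilobase of exon (CPM per kb, log axis), in order of the cont. mean, with 3 libraries per group as points and the mean as a line. Oat leads in cont. and Glul in both deleted groups, and Slc1a2 goes from the middle of the order in cont. to last place in Atg7-KO.

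Scaled by exon length, the order of the genes changed between groups. In cont., Oat led at 663 CPM per kb, then Glul at 319.6, Lhpp at 68.6, Tbx3 at 15.8, Slc1a2 at 14.5 and Rhbg at 6.98. Rnf43 (3.30), Nkd1 (3.30), Axin2 (2.12) and Lgr5 (1.14) closed the cont. order. Of these neighbours, Tbx3 and Slc1a2, Slc1a2 and Rhbg, and Rnf43 and Nkd1 overlapped between livers. In Atg7-KO, Glul led at 60.8 CPM per kb, and Oat (13.6) overlapped Rhbg (12), which overlapped Lhpp (7.45), which overlapped Tbx3 (5.16). Slc1a2 was last at 0.172 CPM per kb, below Lgr5 at 0.344 with no overlap. In S351A, Glul (121) and Oat (66.3) overlapped at the top, followed by Lhpp (17.5), Rhbg (13.3) and Tbx3 (12.8), and the ranges of Nkd1 (2.74), Rnf43 (1.97), Slc1a2 (1.27), Axin2 (1.18) and Lgr5 (0.830) each overlapped the next.

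Because the groups held different numbers of males and females, the values were also read within each sex, with 1 or 2 livers per cell and no test. Oat was 2371 CPM in the cont. female, 32 CPM in Atg7-KO females and 184 CPM in S351A females, and 1161, 32.2 and 101 CPM in males. Slc1a2 was 323, 2.58 and 21.6 CPM in females and 125, 1.62 and 6.89 CPM in males. Glul was 1525, 210.1 and 432 CPM in females and 830.5, 186 and 342 CPM in males. The 8 genes called in Atg7-KO had the same direction in both sexes. Rnf43 and Nkd1 did not, with Rnf43 at 9.51 and 10.8 CPM in cont. and Atg7-KO females and 27.7 and 13.5 CPM in males. With sex as a covariate the counts of called genes stayed at 8, 0 and 5 in the 3 comparisons, beside 37.6%, 0.00893% and 28.6% of all tested genes.

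Calls among other components of the pathway in Atg7-KO are to be read beside the 38% of all tested genes called in that comparison. Of 5 tested ligands, R-spondins and secretion factors, Wnt4 rose in Atg7-KO (log2 fold change 1.99, adjusted p = 0.00428) and in S351A (2.5, adjusted p = 0.00258), and Porcn, the enzyme that acylates Wnt proteins, fell in Atg7-KO (-1.36, adjusted p = 0.0326). With scaling by total counts 2 of the 5 were higher and none lower in Atg7-KO, where that scaling called 38.3% of all tested genes higher and 7.15% lower. Rspo3, an R-spondin of central vein endothelium, stood at a mean of 38.3 CPM (cont.), 47.0 (Atg7-KO) and 66.3 (S351A) and was not called. Wnt2 and Wnt9b, ligands of liver endothelium, were too low to be tested. Wnt2 was read at 2.54, 4.58 and 2.51 CPM in the 3 cont. livers, 1.62, 0 and 1.37 in the Atg7-KO livers and at 0 in all 3 S351A libraries, where 3 counts equal 3.45 to 3.73 CPM, so the depth does not separate S351A from cont. Wnt9b was read at 1.27, 3.17 and 0.806 CPM in the 3 cont. livers, 0.464, 1.08 and 0 in the Atg7-KO livers and 1.15, 0 and 0 in the S351A livers.

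Of 9 tested receptors, 2 fell in both Atg7-KO and S351A, near the shares of all tested genes called lower (18.1% and 13%). Lgr4, a second R-spondin receptor, went from a mean of 70.1 CPM (cont.) to 28.1 (Atg7-KO) and 33.8 (S351A) (log2 fold changes -1.31 and -1.05, adjusted p = 9.94e-04 and 0.00918). Fzd8 changed by -1.54 and -1.48 (adjusted p = 0.00220 and 0.0148). Lrp5, Lrp6 and Ryk were not called, with values of 0.41, -0.40 and 0.18 in Atg7-KO, and with scaling by total counts 2 receptors were higher and 2 lower there. In S351A that scaling gave 3 receptors higher and 0 lower, so neither Lgr4 nor Fzd8 was called lower, and of all tested genes it called 31.2% higher and 4.57% lower. Of 10 tested genes of the signal relay and destruction complex, 3 fell in Atg7-KO: Apc (-1.17, adjusted p = 0.00255), Tnks2 (-0.85, 0.0238) and Dvl1 (-0.74, 0.0283), of which Apc was also lower in S351A. With scaling by total counts none of the 10 was called lower in Atg7-KO or S351A, and 2 and 1 were called higher. Ctnnb1, which encodes β-catenin, was at 109, 101 and 134 CPM in the 3 cont. livers, 108, 99.4 and 95.6 in the Atg7-KO livers and 96.5, 93.1 and 85.2 in the S351A livers. Its log2 fold change of -0.19 in Atg7-KO had a 95% interval of -0.59 to 0.22 (adjusted p = 0.465), and mRNA says nothing of the amount of its protein. Of 7 tested TCF factors and co-activators, Bcl9l was called in Atg7-KO (-0.80, adjusted p = 0.00896), and Tcf7l2, the main TCF of hepatocytes, was not (-0.27, 95% interval -0.79 to 0.25). That list turned to 2 higher and 0 lower with scaling by total counts, beside the 38.3% of all tested genes called higher with it.

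Of 6 tested inhibitors, Notum fell and Dkk3 rose in both deleted groups. These counts lie near the shares of all tested genes, 18.1% lower and 19.9% higher in Atg7-KO and 13% and 15.6% in S351A. With scaling by total counts 2 inhibitors were higher and 1 lower in Atg7-KO, beside 38.3% and 7.15% of all tested genes. In S351A that scaling gave 3 higher and 1 lower, beside 31.2% and 4.57%. Notum, a secreted enzyme that removes the lipid from Wnt proteins and is itself a Wnt target, was at 36.2, 79.2 and 49.4 CPM in the 3 cont. livers, 10.9, 11.8 and 11.4 in the Atg7-KO livers and 11.5, 19.9 and 21 in the S351A livers. Every deleted liver was below every cont. liver, with log2 fold changes of -2.28 (adjusted p = 1.14e-04) and -1.67 (adjusted p = 0.00281). Dkk3 changed by 2.12 and 1.85 (adjusted p = 6.30e-04 and 0.00598). Genes known as Wnt targets mainly in other tissues were called mostly in the other direction: 7 of 9 tested were higher and 1, Notum, lower in Atg7-KO. Of all tested genes, 19.9% were called higher and 18.1% lower there. Ccnd1 rose by 2.68 (adjusted p = 8.74e-04), Sox9 by 2.92 (2.61e-04) and Jun by 1.86 (0.00258), and the list's median was 2.36. Sox9 also stands in the ductular list and Birc5, another of the 7, in the proliferation list. In the edgeR fit no gene of these lists was called between S351A and Atg7-KO.

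**Figure D4:**
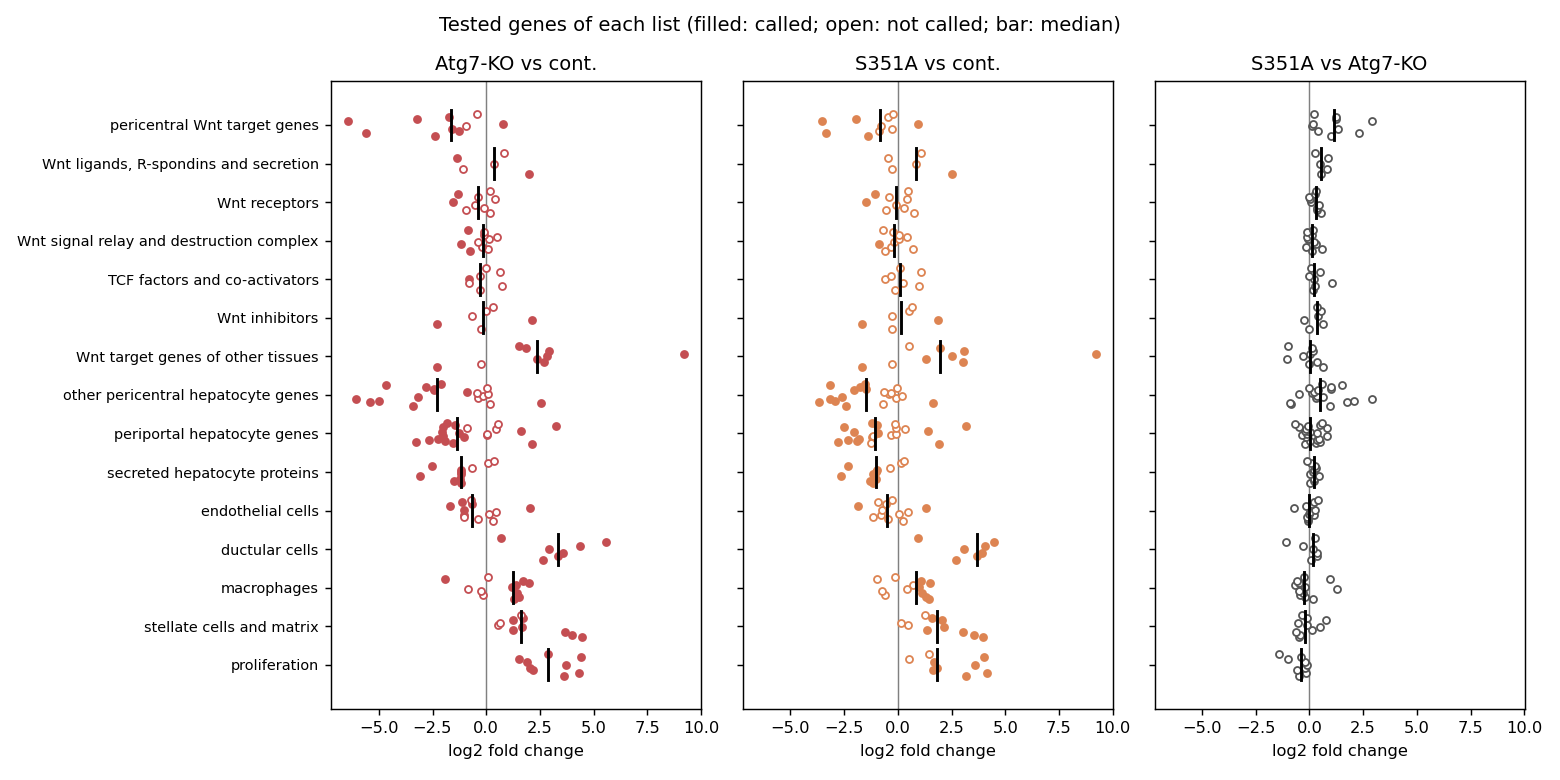
Log2 fold change of every tested gene of each list in 3 comparisons, filled where called, with the list median as a bar. Pericentral Wnt targets, other pericentral genes and periportal genes have medians below 0 in Atg7-KO against cont., ductular, stellate, macrophage and proliferation genes have medians above 0, and in the edgeR fit shown no point is filled in S351A against Atg7-KO.

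The counts of hepatocyte genes stand against 19.9% of all tested genes called higher and 18.1% lower in Atg7-KO, and 15.6% and 13% in S351A. Among 18 other pericentral hepatocyte genes, 11 fell and 1 rose in Atg7-KO, with a median of -2.27, and 10 fell and 1 rose in S351A, with a median of -1.5. Between S351A and Atg7-KO, edgeR called 0 of the 18, and DESeq2 and edgeR without the filter each called 4, all higher. Of all genes tested in these 2 settings, 0.205% and 0.32% were called higher. At an unadjusted p below 0.05 there were 10 of the 18, in either direction, against 6.6% of all tested genes. In 8 every S351A liver was above every Atg7-KO liver and in 2 below, against 7.67% and 9.23% of all tested genes. The list's median was 0.47 in that comparison. Cyp2e1, a monooxygenase of ethanol metabolism, went from a mean of 3795 CPM (cont.) to 361 (Atg7-KO) and 709 (S351A) (log2 fold changes -3.39 and -2.42). Car3, a carbonic anhydrase, changed by -4.67 and -3.17. The exception was Cyp2a5, another cytochrome P450, which rose by 2.53 (adjusted p = 1.35e-04) in Atg7-KO and by 1.63 (adjusted p = 0.00335) in S351A. Cyp2a5 has the near-identical copy Cyp2a4, between which reads may have been split. Genes of the opposite zone fell as well: 12 of 20 periportal genes were lower and 3 higher in Atg7-KO, with a median of -1.35. Pck1, of gluconeogenesis, changed by -2.00 (adjusted p = 0.00304), whereas Pigr, the transporter of polymeric immunoglobulins, was not called (-0.89, 0.0546). Of 11 secreted hepatocyte proteins, 8 were lower in Atg7-KO with a median of -1.17, Apoa2 most among the highest ones (-3.08, against -1.17 for Alb and -1.22 for Apoa1). With scaling by total counts, 6 of the 10 pericentral Wnt targets, 10 of the other pericentral, 10 of the periportal and 4 of the secreted genes were called lower in Atg7-KO, as were 7.15% of all tested genes. The same scaling called 1, 2, 5 and 1 of them higher, as it did 38.3% of all tested genes.

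Markers of other cell types moved with the groups, and their part in the levels of the 10 genes was not tested. The shares of all tested genes called were 19.9% higher and 18.1% lower in Atg7-KO, and 15.6% and 13% in S351A. Ductular markers were higher in Atg7-KO and S351A in 7 of 7 tested genes, and the summed level of the list was 74.7 to 125 CPM over the cont. livers, 878 to 1278 over the Atg7-KO livers and 791 to 1278 over the S351A livers. Spp1 led it with a rise of 4.37 in Atg7-KO. Stellate cell and matrix genes were higher in 7 of 10, with summed levels of 297 to 598, 1338 to 1809 and 1218 to 1749 CPM. Macrophage genes were higher in 7 of 12 and lower in 1 in Atg7-KO (summed 263 to 421, 502 to 636 and 415 to 447 CPM). Proliferation genes were higher in 9 of 9 in Atg7-KO (summed 17.9 to 29.2, 134 to 176 and 119 to 125 CPM), with Mki67 at 3.64 and Top2a at 4.30. Endothelial genes, a list that does not single out the cells of the central vein, were higher in 1 and lower in 5 of 12 in Atg7-KO. In S351A they were higher in 1 and lower in 1. Their summed level was 408 to 634 CPM over the cont. livers, 417 to 549 over the Atg7-KO livers and 438 to 528 over the S351A livers, and with scaling by total counts 2 were higher and 1 lower in Atg7-KO.

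The genes with the pattern most like Glul and Oat were found from the root mean square difference of their log2 levels over the 9 libraries after each gene was centred on its cont. mean, among 8394 genes with a cont. mean of at least 10 CPM. For Glul these were Prodh, which starts proline breakdown (0.174; mean levels 347, 67.7 and 136 CPM in cont., Atg7-KO and S351A), Slc12a9 (0.217) and Amy1, an amylase (0.227). For Oat the nearest of all was Slc1a2 (0.452), and outside the 10 genes they were the cytochromes P450 Cyp2c54 (0.587; 746, 10.9 and 84.0 CPM) and Cyp2d13 (0.612), then Car3 (0.699). Glul and Oat differed from each other by 2.25 on this measure. Cyp2c54, Cyp2d13 and Amy1 belong to families of similar genes, and their counts are uncertain to that extent.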

How the data were processed

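RNA-seq libraries from liver poly(A) RNA of 9 mice were read as single 75-base reads. The authors trimmed the reads with Trim Galore, aligned them with STAR to mm10 and deposited a matrix of RSEM expected counts per gene symbol. Versions, annotation and strand setting are not given in the sources used here. Expected counts were rounded to whole numbers (4.40% to 7.75% of the values per library were not whole). Genes passed edgeR's filterByExpr (10 counts, total 15), leaving 11199 of 24411, and libraries were scaled by TMM. One quasi-likelihood fit of all 9 libraries (edgeR 4.0.16, R 4.3.3) gave each comparison, two-sided, with Benjamini-Hochberg adjustment over all tested genes and 95% intervals. The study's own tests used DESeq2; DESeq2 1.42.0 and limma 3.58.1 (voom) were alternatives here, with other scalings, filters, thinning, sex as a covariate and single libraries left out. Libraries of a group came from mice labelled as separate replicates and none were identical. Depth was 713835 to 15426566 counts, so genes of a few CPM rest on a few counts in S351A. Exon lengths and positions came from GENCODE M21 (23376 symbols matched) and promoters from RefSeq on GRCm38.p6. Named genes were the 10 members, Atg7, genes of the Wnt lists, the 3 most abundant tested genes of each other list and the 3 nearest patterns to Glul and Oat. Some genes that this rule names are not reported here. The members and lists were chosen with earlier results of these data known.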

Additional observations from a re-analysis of the deposited data

How the results depend on the processing

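Counts of the 10 genes called were 8 in Atg7-KO against cont., 0 in S351A against Atg7-KO and 5 in S351A against cont. Of all tested genes, 38%, 0.00893% and 28.6% were called. In the first comparison 5 were called when each library had to hold at least 10 counts, and 5 after thinning to the smallest library, settings that tested 6 and 8 of the genes. These settings called 36.4% and 30.1% of all genes they tested. Leaving out 1 library gave 6 to 9 of the 10, beside 28.2% to 38.4% of all tested genes. In S351A against Atg7-KO, 3 were called with no filter, 2 by DESeq2 and 1 with the 6 compared libraries alone, and leaving out 1 library gave 0 each time. Of all genes tested, the first 3 settings called 0.514%, 0.357% and 0.0982%, and the fits without 1 library at most 0.0259%. For S351A against cont., leaving out 1 library gave 3 to 6, beside 18% to 30.2% of all tested genes. The lowest count came without S351A replicate 2, where 18.4% were called. Over all genes, S351A against Atg7-KO gave 1 call, 98 with no filter and 40 by DESeq2, and S351A against cont. gave 3208 calls and 1849 (19.5%) with its 6 libraries alone. With the replicate number as a block (replicate block) the counts of the 10 genes were 8, 0 and 5 again, beside 38.5%, 0.00893% and 30.4% of all tested genes. Deviations of same-numbered livers correlated at -0.041 to 0.306 and those of differently numbered livers at -0.265 to 0.212. Replicate 1 was a male in all 3 groups. The titles name no pairing, so the block was kept as an alternative, and whether the numbers pair the mice was not tested.

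Signs that turned belonged to values that were not called, and the cause was not tested. Scaling by total counts gave 0.0249 for Lgr5, 0.24 for Nkd1 and 0.17 for Tbx3 in S351A against cont., and 0.0926 for Nkd1 in Atg7-KO against cont. Scaling without the 20 genes with most counts gave 0.14 for Nkd1 and 0.0871 for Tbx3 in S351A against cont. In S351A against Atg7-KO, Nkd1 was -0.27 after thinning, and leaving out 1 library moved Rhbg between -0.0072 and 0.30 and Rnf43 between -0.23 and 0.34. Tbx3 in S351A against cont. moved between -0.55 and 0.17 when 1 library was left out. Slc1a2, Oat, Glul, Lhpp, Lgr5 and Tbx3 kept sign and call in Atg7-KO against cont. under every alternative in which they were tested. In the S351A libraries Axin2, Lgr5, Slc1a2, Rnf43, Nkd1 and Rhbg rested on 4 to 28 counts.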
